A study of Mus musculus with 4 samples.

Results

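The 9 complement genes C1qa, C1qb, C1qc, C3, C4b, C3ar1, C5ar1, Cfb and Serping1 were followed through the cell classes of the mouse brain after transient middle cerebral artery occlusion (tMCAO), in which an artery of the brain is blocked and reopened as a model of stroke. The list of genes was set with earlier results of these data known, its members were found by gene symbol as 9 of the 31053 features in the count tables, and each symbol matched 1 feature. The sham library and the libraries from days 1, 3 and 7 after tMCAO came from the brain hemisphere on the operated side of male mice labelled 8 weeks old, which the study describes as C57/BL6. The sham tissue was taken at day 7 according to the series' design text, and the number of mice behind each library is not given in the sources used here. Tissue was digested with papain and spun in Percoll before droplet capture, so the mix of classes is that of the prepared suspension, not of the tissue. As each group was a single library, no test between groups was possible, and every interval is an exact 95% interval that covers counting error only.

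Complement is a chain of proteases and binding proteins. C1q, built from the products of C1qa, C1qb and C1qc, recognises tagged surfaces and starts the classical pathway, C4 and C3 are cleaved and attached to the surface, and factor B (Cfb) amplifies the reaction. The released fragments act through the receptors C3ar1 and C5ar1, and the C1 inhibitor (Serping1) blocks the first proteases. In the brain, microglia are known as the main source of C1q.

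The libraries held 11744 to 17922 cells and 69392755 to 104023002 unique molecular identifiers (UMIs, each standing for 1 captured RNA molecule), and 44360 of 59429 cells (74.6%) passed the limits on genes and mitochondrial UMIs. A cell was placed in a class when it had UMIs of at least 3 of 8 marker genes of the class and of at least 2 times as many markers as for any other class, which placed 38936 cells (87.8%) in 15 classes. No complement gene was a marker. Each class is written as "-like", because the names were rebuilt here from markers, and values may differ from those of the study for that reason alone. In classes of at least 50 cells, all 8 markers were each found in at least 10% of the cells, except for 7 of 8 in fibroblast-like cells of day 1 and in endothelial-like cells of days 1 and 3, which the gate fixes in part. Pairs of libraries shared 33 to 88 cell barcodes, at most 0.562% of the smaller library. Levels are counts-per-million (CPM), the UMIs of a gene over all UMIs of the cells of a class, not scaled by gene length, so levels are compared within a gene only. Fewer UMIs of a gene in a class may reflect fewer expressing cells or less RNA in each, which the summed levels cannot tell apart.

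**Figure D1:**
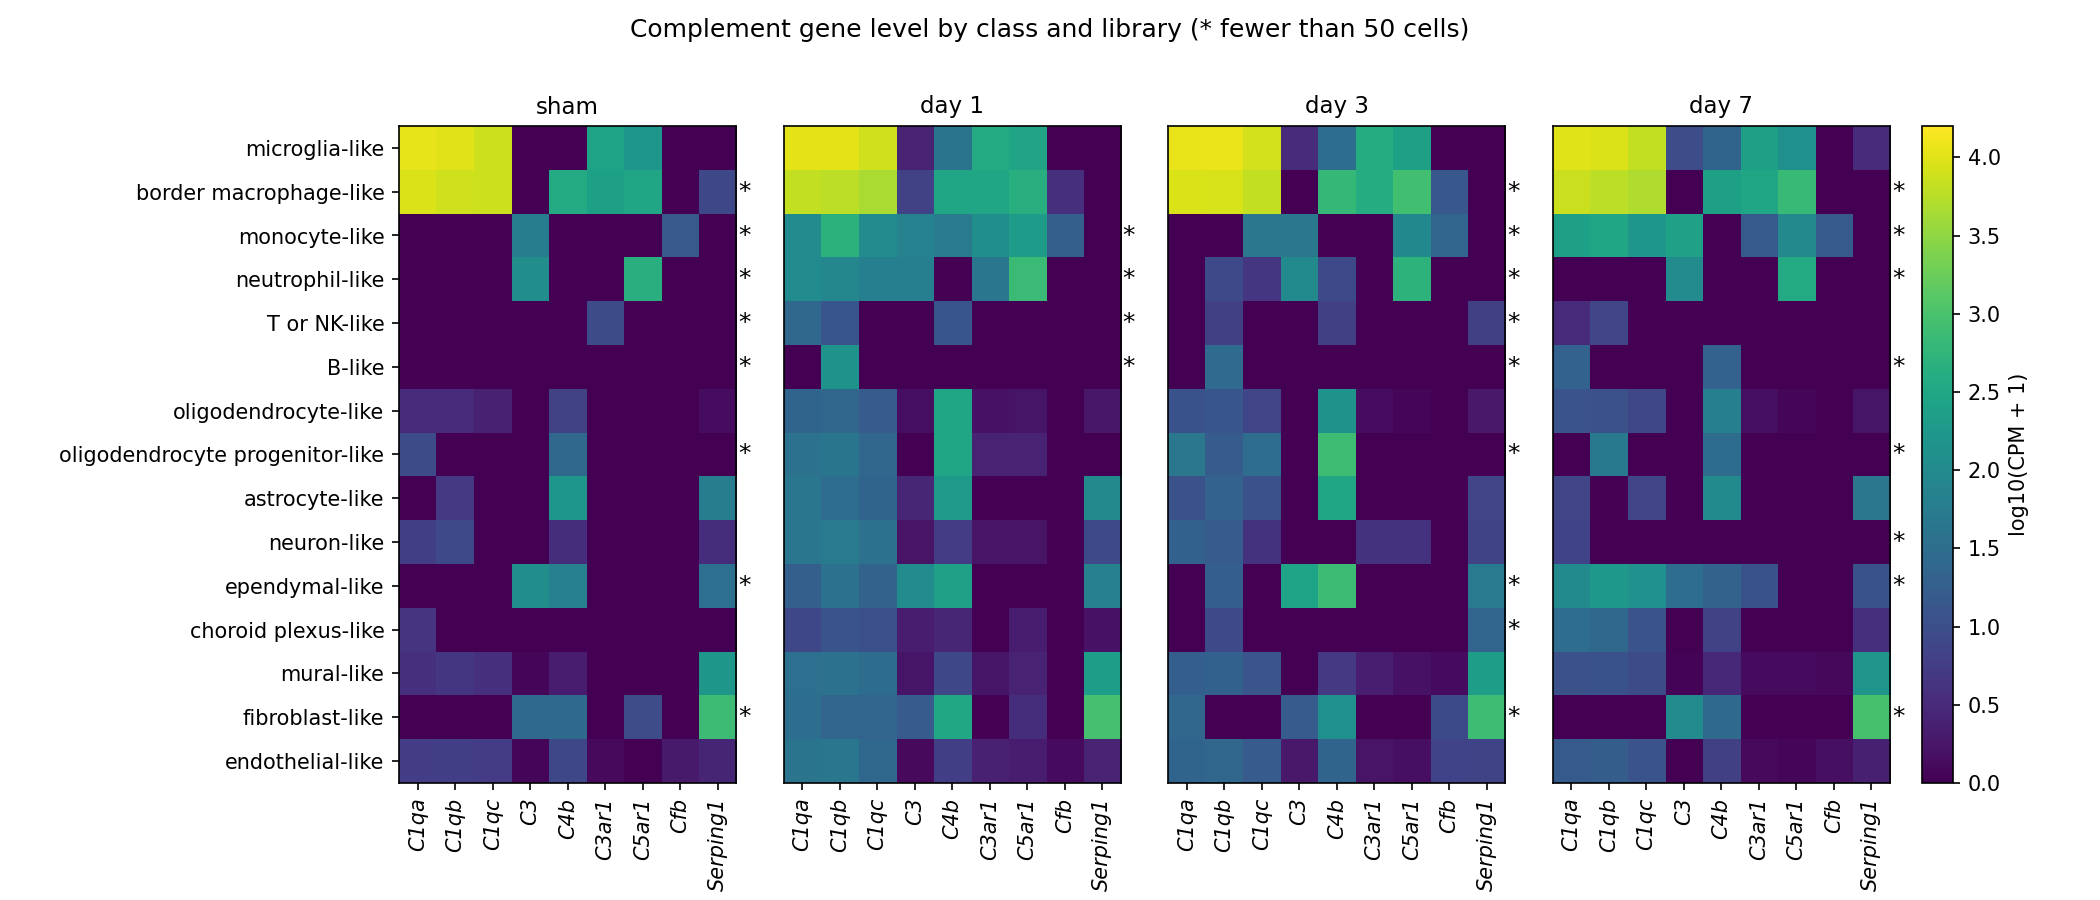
Level of the 9 complement genes in each cell class and library, as log10(CPM + 1), with a star where the class had under 50 cells in that library. The 3 C1q genes were highest in microglia-like and border macrophage-like cells in every library, C4b in oligodendrocyte-like cells was higher in all 3 tMCAO libraries than in the sham library, and Serping1 was strongest in fibroblast-like and mural cells.

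A change was called when log2((CPM + 10)/(CPM + 10)) of a day over sham was past 2-fold, sham or that day held 50 CPM or more of the gene, and the interval of the ratio left out 1. Classes with at least 50 cells in both libraries gave 9 pairs of a member and a class on each day, from 4 classes and 7 of the 9 members, while C3 and Cfb stayed under 50 CPM there. The member pairs that rose numbered 1 of 9 on day 1, against a background of 5.8% of all gene and class pairs. On day 3 it was 1 of 9 again, against 2.74%, and on day 7 1 of 9, against 3.07%. In every case the pair was C4b in oligodendrocyte-like cells. No member pair fell on day 1 or day 7, where the background was 4.53% and 1.78%, and 1 fell on day 3 (3.14%), namely Serping1 in astrocyte-like cells. The median log2 ratio of the 9 pairs was 0.34, 0.37 and -0.19 on days 1, 3 and 7, beside -0.04, 0.05 and 0.04 over all pairs.

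The recognition genes C1qa, C1qb and C1qc lie side by side on chromosome 4 of GRCm38, all on the minus strand, with C1qb (ENSMUSG00000036905) at chr4:136880129-136886187, C1qc (ENSMUSG00000036896) at chr4:136889804-136893065 and C1qa (ENSMUSG00000036887) at chr4:136895917-136898803 in GENCODE vM21. Of the 9 members, 5 had an entry in the RefSeq promoter table of GRCm38.p6, and C1qa was not among them. The sequences upstream of C1qb and C1qc are shown because both genes moved together across the classes. Each is the stretch of the 250 bases before the RefSeq start that no GENCODE exon of the gene covers, 5′ to 3′ on the minus strand, and capitals mark GGAAGT or GAGGAA on either strand, letters of the kind bound by ETS factors such as PU.1.
C1qb, chr4:136886201-136886450: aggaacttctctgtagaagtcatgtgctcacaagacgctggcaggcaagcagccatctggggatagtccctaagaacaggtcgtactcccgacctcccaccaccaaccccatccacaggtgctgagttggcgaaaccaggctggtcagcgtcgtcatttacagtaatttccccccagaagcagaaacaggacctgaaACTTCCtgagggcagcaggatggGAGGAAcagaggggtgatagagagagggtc
C1qc, chr4:136893066-136893164: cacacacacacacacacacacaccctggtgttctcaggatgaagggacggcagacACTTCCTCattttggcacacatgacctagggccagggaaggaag
In C1qb, GGAAGT lay at bases -53 to -48 on the other strand and GAGGAA at -30 to -25, counted back from the start. In C1qc, GGAAGT lay at -195 to -190 and GAGGAA at -193 to -188, so that the 2 matches overlap. Of the same 250-base windows of 27025 genes, 19.99% held GGAAGT and 23.1% held GAGGAA, so either match alone is common, and a match is no evidence of binding.

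In microglia-like cells the C1q genes were high in every library and varied little. C1qa had 11229 CPM after sham surgery, then 10804, 11300.4 and 9818 CPM on days 1, 3 and 7. C1qb, which encodes the B chain, had 10222 CPM (sham) and 10570.3, 11807 and 9382 CPM. C1qc, which encodes the C chain, had 7662 CPM (sham) and 7875, 8244 and 6533 CPM. All 3 genes were lowest on day 7, and C1qb and C1qc were highest on day 3. Relative to sham, the summed C1q level was 1.005 on day 1 (interval 0.985 to 1.025). It was 1.08 on day 3 (1.06 to 1.10) and on day 7 it was 0.884 (0.865 to 0.903). These shifts exceeded counting error on days 3 and 7, but their size was far under 2-fold and the spread between mice is unknown. The log2 ratios lay between -0.23 and 0.21 for all 3 genes on all 3 days, and none was called. The sign of the C1qa ratio on days 1 and 3, and of the C1qb and C1qc ratios on day 1, changed with the processing, whereas the day 7 ratios of all 3 genes were below 0 and the day 3 ratios of C1qb and C1qc above 0 under every alternative run.

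**Figure D2:**
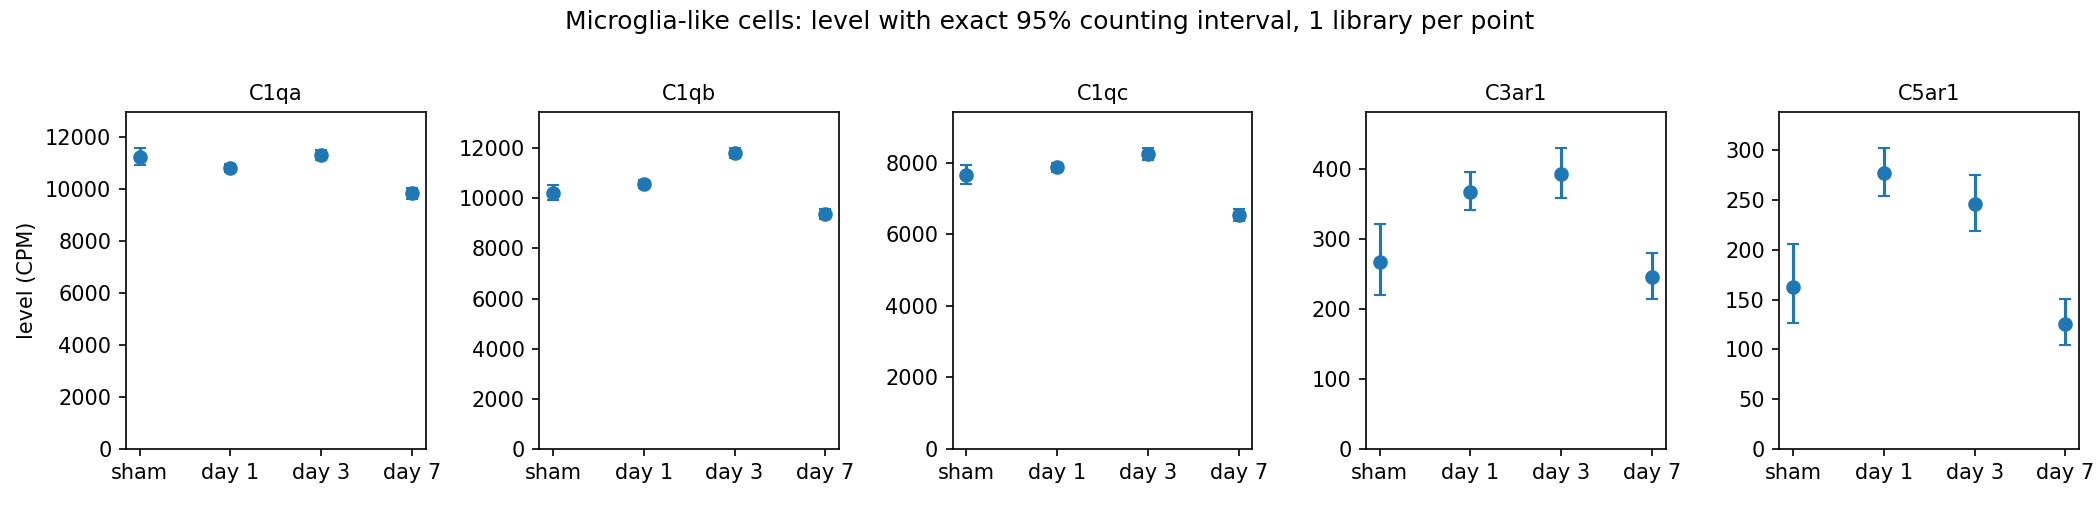
Levels of C1qa, C1qb, C1qc, C3ar1 and C5ar1 in microglia-like cells in CPM, 1 point per library with its exact 95% counting interval. The C1q genes stayed within narrow bounds, whereas C3ar1 and C5ar1 were higher on days 1 and 3 than in the sham library and on day 7.

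Nearly all microglia-like cells held C1q UMIs. With each cell thinned to 1000 UMIs, UMIs of all 3 C1q genes were found in 90 of 94 sham cells (95.7%), 357 of 361 day 1 cells (98.9%), 244 of 252 day 3 cells (96.8%) and 201 of 202 day 7 cells (99.5%). The median microglia-like cell held 29, 27, 29 and 23 C1q UMIs of the 1000. Border macrophage-like cells, a small class of 22 to 64 cells per library, had C1qa at 9469.8 CPM (sham) and 6437, 8994 and 7214 CPM on days 1, 3 and 7. With classes from clusters in place of the marker gate, this class held 82, 153, 76 and 125 cells and C1qa stood at 5857, 4502, 4124 and 2330 CPM, so that both the level and its course after tMCAO depended on how the cells were chosen. In that setting C1qa and C1qc in border macrophage-like cells were called as falls on day 7. No cluster was named monocyte-like, and the cluster behind this class also had 6 of 8 microglia markers more often than the other cells.

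Other classes held C1q UMIs at lower levels that moved with the library. The summed C1q level was at most 706 CPM in monocyte-like and 412 CPM in ependymal-like cells, both small classes. With classes from clusters, ependymal-like cells had C1qa at 14.6, 16.7, 212 and 1840 CPM, from 21, 169, 293 and 92 cells. That cluster class thus differed in its make-up from the gated one. Monocyte-like cells of day 1 had C1qb at 494 CPM, from 28 UMIs in 11 cells. In those of day 7, 1 cell held 32 of the 33 C1qa UMIs. Endothelial-like cells, which should lack C1q, had 4.86 CPM of C1qa after sham surgery, against 40.4, 21.3 and 14.2 CPM on days 1, 3 and 7. Thinned to 1000 UMIs, 0.423%, 3.52%, 1.82% and 1.21% of them had a C1qa UMI (1.10%, 6.75%, 4.46% and 2.60% unthinned, at median depths of 3000, 1954.5, 2275.5 and 2092 UMIs), against 99.2% to 100% of microglia-like cells, whose median depths were 2488, 3751, 2747.5 and 2990 UMIs. Of the UMIs of the 3 C1q genes, C1qa took 38.6%, 36.9%, 36.0% and 38.2% in microglia-like and 34.1%, 37.1%, 35.5% and 34.5% in endothelial-like cells. On day 1, the library with the most C1q UMIs in endothelial-like cells, the split over the other 2 genes differed beyond counting error. There C1qb took 36.1% (35.7 to 36.5%) in microglia-like against 39.5% (37.1 to 42.0%) in endothelial-like cells, and C1qc took 26.9% (26.6 to 27.3%) against 23.4% (21.4 to 25.5%). The microglia marker list moved in the same order in endothelial-like cells, at 37.9, 70.2, 59.7 and 48.2 CPM, by smaller factors than C1qa did, and its part in the C1q values was not tested. No expression was read from C1q levels of such size outside microglia-like and border macrophage-like cells. Microglia-like cells held 63.0% of the C1qa UMIs of kept sham cells, and on days 1, 3 and 7 they held 69.8%, 80.9% and 75.5%, and most of the rest lay in border macrophage-like cells and in cells that no class took.

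Of the cleaved components, C4b changed most. C4b (ENSMUSG00000073418, chr17:34728380-34743882, minus strand) encodes the mouse C4 that is deposited on surfaces after C1q binding. Its near-identical neighbour C4a was not analysed here, and how reads that fit both genes were counted is not given in the sources used here, so the C4b counts are uncertain to that extent. In oligodendrocyte-like cells, the myelinating cells of the brain, C4b had 5.82 CPM in the sham library (4.01 to 8.18, from 33 UMIs), 309 CPM on day 1 (299 to 319, 3507 UMIs), 141 CPM on day 3 (131 to 152, 747 UMIs) and 63.7 CPM on day 7 (57.9 to 69.9, 440 UMIs). The sham library was lowest, day 1 was highest, and the intervals of the 4 libraries did not overlap. The level was 53.0 times that of sham on day 1 (37.7 to 77.2), 24.2 times on day 3 (17.1 to 35.5) and 10.9 times on day 7 (7.67 to 16.1). The log2 ratios with 10 CPM added were 4.33, 3.26 and 2.22, and all 3 were called, where 1.93%, 0.451% and 1.87% of the genes tested in oligodendrocyte-like cells rose. By this ratio C4b ranked 2 of 3103 genes on day 1, 1 of 3104 on day 3 and 3 of 3324 on day 7.

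C4b UMIs were found in many oligodendrocyte-like cells on day 1 and in a smaller share of them on days 3 and 7. A lower level by itself lowers such a share, so fewer expressing cells and less C4b RNA in each cannot be told apart. Thinned to 1000 UMIs, 1 of 748 sham cells (0.134%) had a C4b UMI, against 461 of 2190 on day 1 (21.1%, 19.4 to 22.8%), 89 of 819 on day 3 (10.9%, 8.82 to 13.2%) and 50 of 1131 on day 7 (4.42%, 3.30 to 5.79%). Unthinned shares were 3.53%, 45.7%, 29.8% and 14.5%, at median depths of 7916, 4861, 6703.5 and 6359 UMIs. No cell on day 1 held more than 19 of the 3507 UMIs, and the richest cells of days 3 and 7 held 17 of 747 and 24 of 440. The 10% of cells with the most C4b held 47.4%, 68.1% and 88.2% of its UMIs on days 1, 3 and 7. Marker lists of 8 other classes were set beside C4b in oligodendrocyte-like cells. In the order sham, day 1, day 3 and day 7, the astrocyte list stood at 37.2, 55.0, 28.9 and 50.4 CPM and the microglia list at 19.2, 37.4, 46.5 and 29.4 CPM. The border macrophage list stood at 0.706, 7.13, 2.08 and 4.198 CPM and the fibroblast list at 1.76, 5.81, 2.27 and 1.59 CPM. The oligodendrocyte progenitor list stood at 47.3, 54.8, 52.9 and 43.4 CPM and the ependymal list at 30.5, 45.6, 24.2 and 46.3 CPM. The endothelial list stood at 59.6, 115.6, 68.6 and 93.1 CPM and the neuron list at 101.5, 422.04, 117 and 153 CPM. All of these but the microglia and ependymal lists were highest on day 1, as C4b was, and their part in the C4b values was not tested, apart from the alternative that follows. In oligodendrocyte-like cells without a UMI of any marker of another class, an alternative added after seeing the data that left 71, 160, 79 and 125 cells, C4b came to 4.31, 221, 147 and 37.1 CPM, so that the day 7 level fell short of the 50 CPM needed for a call.

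**Figure D3:**
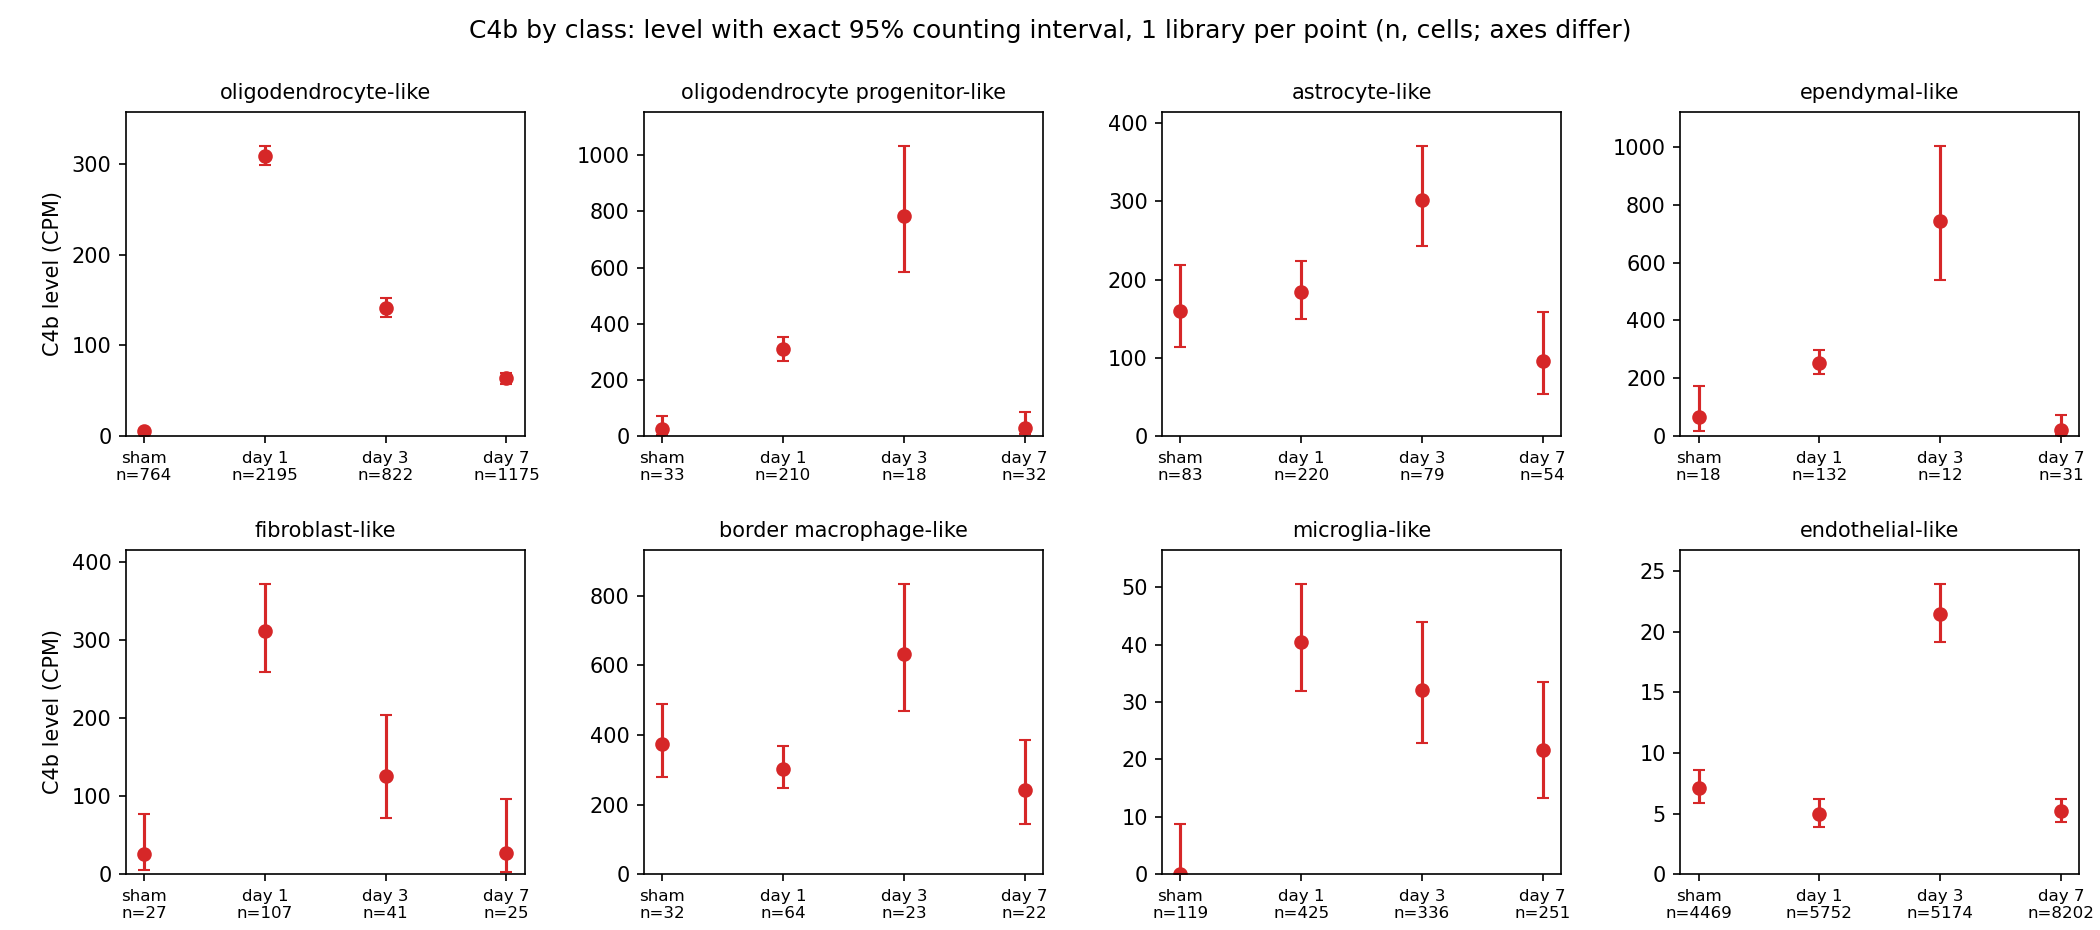
Level of C4b in CPM in 8 cell classes, 1 point per library with its exact 95% counting interval and the number of cells, on axes that differ between classes. Oligodendrocyte-like cells went from 5.82 CPM in the sham library to 309 CPM on day 1 and were lower on each later day, whereas astrocyte-like and endothelial-like cells were highest on day 3.

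Astrocyte-like cells held C4b in the sham library as well. They had 160 CPM in the sham library, 184 CPM on day 1, 302 CPM on day 3 and 96.3 CPM on day 7, from 40, 101, 92 and 15 UMIs. A single sham cell carried 27 of the 40 sham UMIs (67.5%). The ratios over sham were 1.15 (0.790 to 1.70), 1.89 (1.29 to 2.81) and 0.602 (0.309 to 1.11), and none was called. With the cell richest in C4b left out of each library, an alternative added after seeing the data, sham had 53.4 CPM (13 UMIs) and the ratios were 3.13 (1.74 to 6.11), 4.83 (2.67 to 9.49) and 1.496 (0.624 to 3.56), of which days 1 and 3 were called. By cells instead of UMIs, the thinned share was 6 of 70 (8.57%) for sham, and 13.3%, 20.3% and 11.4% on days 1, 3 and 7, with intervals that overlapped.

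In sham microglia-like cells C4b had no UMI, whereas days 1, 3 and 7 gave 78, 39 and 20 UMIs, or 40.5, 32.2 and 21.7 CPM. These levels were 5.65, 4.49 and 3.03 times a floor of 3 UMIs in the sham library, which leaves out the counting error of the 3 days. The exact lower limits of the ratios were 3.20, 3.12 and 2.37 without the upper limit on genes. With the cell richest in C4b left out of each library they were 4.27, 3.14 and 1.65. The levels were under 50 CPM and so not called. The border macrophage marker list moved in the same direction in this class, at 85.9 CPM for sham and 445, 278 and 225 CPM for the later libraries, with 5, 2, 5 and 4 of its 8 markers at 0, and its part in the C4b values was not tested. The oligodendrocyte list, at 114.5, 47.2, 53.6 and 92.1 CPM, was highest in the sham library.

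Small classes also carried C4b. Oligodendrocyte progenitor-like cells, which renew the oligodendrocytes, had 24.3 CPM (3 UMIs) in the sham library, 309 CPM on day 1, 784 CPM on day 3 (51 UMIs from 18 cells) and 29.3 CPM (3 UMIs) on day 7. Without the upper limit on genes, which left 111, 224, 35 and 54 cells, the levels were 8.61, 273, 345 and 51.6 CPM. The ratio to sham was then 31.7 (15.1 to 79.8) on day 1 and 5.995 (2.36 to 17.1) on day 7. With classes from clusters the levels were 54.5 CPM (9 UMIs), 286, 345 and 86.4 CPM, so that the sham level was higher and the rises were smaller. Ependymal-like cells, which line the ventricles, had 63.0, 264, 285 and 25.1 CPM without the upper limit on genes (69, 282, 30 and 67 cells). The ratios were 4.19 (3.12 to 5.76) on day 1 and 0.399 (0.198 to 0.749) on day 7. With that limit the day 3 level was 744 CPM, from 43 UMIs in 12 cells. With classes from clusters the levels were 58.2 CPM (4 UMIs), 245, 68.5 and 30.3 CPM, so that the day 3 level depended on how the cells were chosen. The ependymal-like cluster class of day 3 had 293 cells and, as given above, more C1qa than the gated one. Fibroblast-like cells had 26.2 CPM (3 UMIs), 311.5, 125.5 and 26.6 CPM (2 UMIs). With classes from clusters they had 30.0, 345, 43.8 (7 UMIs) and 112 CPM (11 UMIs), so that the order of days 3 and 7 turned, with intervals that overlapped. Border macrophage-like cells had 374, 303.5, 632 and 243 CPM in the same order (179, 212, 296 and 63.9 CPM with classes from clusters, where day 7 was called as a fall). Endothelial-like cells had 7.13, 4.95, 21.4 and 5.18 CPM, and the day 3 level was 3.00 times that of sham (2.41 to 3.76) but under 50 CPM. Kept cells held 294, 4949, 1535 and 725 C4b UMIs in all, of which oligodendrocyte-like cells had 11.2%, 70.9%, 48.7% and 60.7%.

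C3 (ENSMUSG00000024164, chr17:57203970-57228136, minus strand), the component on which all complement pathways meet, was sparse. Kept sham cells held 28 C3 UMIs, and the totals for days 1, 3 and 7 were 162, 107 and 86. Ependymal-like cells held C3 UMIs in every library, with 118 CPM in the sham library (7 UMIs), 107 CPM on day 1 (67 UMIs in 132 cells), 277 CPM on day 3 (16 UMIs, 9 of them in 1 cell) and 30.9 CPM on day 7 (3 UMIs). Without the upper limit on genes they stood at 41.5, 112, 111 and 75.3 CPM, at 2.70 times the sham level (1.86 to 4.04) on day 1 and 1.81 times (1.10 to 3.01) on day 7. With classes from clusters they stood at 116 CPM (8 UMIs), 138, 16.0 (21 UMIs in 293 cells) and 56.9 CPM. The direction on days 1, 3 and 7 thus depended on the setting. Neutrophil-like cells had 116, 64.3, 102.5 and 107 CPM, from 3 to 28 UMIs, with intervals that all overlapped. Monocyte-like cells had 4, 4, 2 and 34 UMIs, the last of them 248 CPM in 20 cells. C3 was sparse in the larger classes that carried other members. Microglia-like cells had 0, 3, 3 and 8 C3 UMIs in the same order, endothelial-like cells 3, 4, 14 and 0, and astrocyte-like cells a single UMI, on day 1.

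Cfb (ENSMUSG00000090231, chr17:34856374-34862518, minus strand), the protease of the alternative pathway, overlaps the gene Gm20547 on the same strand, so its counts are uncertain. Endothelial-like cells held 94.1%, 35.7%, 86.7% and 52.4% of its few UMIs, listed as sham, day 1, day 3 and day 7, and most came from day 3. They made up 59.1%, 43.0%, 55.2% and 58.4% of kept cells in the same order, so their Cfb share exceeded this only for sham and day 3. These cells had 16, 5, 91 and 11 Cfb UMIs, which is 1.04, 0.334, 5.98 and 0.513 CPM, of 17, 14, 105 and 21 UMIs over all kept cells. The day 3 level was 5.77 times that of sham (3.37 to 10.5), under the 50 CPM needed for a call. Monocyte-like cells had a higher Cfb level in every library, at 14.2 to 22.2 CPM, but from only 5 UMIs in 47 cells. In thinned endothelial-like cells the Cfb share was 0.174%, 0.0437%, 0.535% and 0.0564%, and unthinned it was 0.313%, 0.0869%, 1.33% and 0.134%. On day 3 the intervals of the thinned share, 0.347 to 0.789%, and of the sham share, 0.0701 to 0.359%, overlapped.

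The receptor genes C3ar1 (ENSMUSG00000040552, chr6:122847138-122856161) and C5ar1 (ENSMUSG00000049130, chr7:16246743-16259540), both on the minus strand, encode the receptors for the C3a and C5a fragments. The sequences before their RefSeq starts in GRCm38.p6 are shown as a pair of receptor genes found in microglia-like and other myeloid cells. Of the pair, 1 holds the letters searched above. The C3ar1 stretch lies outside the gene as GENCODE vM21 places it, whereas the C5ar1 stretch lies inside the longer GENCODE gene, where no exon covers it. Both are 5′ to 3′ on the minus strand, and capitals mark GGAAGT on either strand.
C3ar1, chr6:122856162-122856407: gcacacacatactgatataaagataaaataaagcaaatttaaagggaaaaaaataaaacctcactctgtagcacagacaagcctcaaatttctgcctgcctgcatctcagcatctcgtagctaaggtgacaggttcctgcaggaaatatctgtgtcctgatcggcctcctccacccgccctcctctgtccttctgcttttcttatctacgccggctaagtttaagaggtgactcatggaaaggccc
C5ar1, chr7:16259339-16259512: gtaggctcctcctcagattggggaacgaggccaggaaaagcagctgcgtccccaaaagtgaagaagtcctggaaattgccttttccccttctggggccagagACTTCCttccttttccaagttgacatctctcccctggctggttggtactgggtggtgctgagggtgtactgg
In C5ar1, GGAAGT lay at bases -72 to -67 on the other strand, and a further match at -190 to -185 fell outside the stretch shown. C3ar1 held neither GGAAGT nor GAGGAA in its window, which says only that these letters are not there. None of the 5 member windows held TTCNNNGAA, a STAT motif, on either strand, which 7.18% of the 27025 windows held.

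In microglia-like cells C3ar1 had 267 CPM (220.1 to 322) for sham and 368 CPM (342 to 396), 393 CPM (359 to 430.4) and 246 CPM (215 to 280.2) on days 1, 3 and 7. The ratios were 1.38 (1.13 to 1.70), 1.47 (1.20 to 1.83) and 0.920 (0.731 to 1.16), with log2 values of 0.45, 0.54 and -0.12. C5ar1 had 162 CPM (126 to 206) for sham and 278 CPM (254.5 to 302), 246 CPM (219 to 275) and 126 CPM (104 to 151) on the same days. Its ratios were 1.71 (1.33 to 2.24), 1.51 (1.16 to 2.002) and 0.775 (0.569 to 1.06), with log2 values of 0.74, 0.57 and -0.34. For both receptors days 1 and 3 lay above sham beyond counting error, day 7 did not differ from sham beyond it, and no ratio was called over all cells, where 12.2%, 3.85% and 2.79% of the genes tested in microglia-like cells rose on days 1, 3 and 7. With every cell weighted equally instead of by its UMIs, the day 1 log2 ratio of C5ar1 was 1.30 and was called. A single sham cell held 17 of the 68 sham C5ar1 UMIs (25%), and with the cell richest in C5ar1 left out of each library the sham level was 124 CPM and the ratios were 2.20 (1.64 to 2.99), 1.92 (1.42 to 2.64) and 0.943 (0.669 to 1.34), of which day 1 was called (log2 1.07). The border macrophage marker list, whose levels in microglia-like cells are given above with C4b, was likewise higher on days 1 and 3 than in the sham library, and its part in the C5ar1 and C3ar1 values was not tested.

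The share of thinned microglia-like cells with a C5ar1 UMI was 9 of 94 (9.57%, 4.47 to 17.4%) in the sham library, 84 of 361 (23.3%, 19.01 to 28.0%) on day 1, 45 of 252 (17.9%, 13.3 to 23.2%) on day 3 and 30 of 202 (14.9%, 10.2 to 20.5%) on day 7, so that only the day 1 and sham intervals were apart. Unthinned the C5ar1 shares were 23.5%, 49.9%, 34.2% and 27.5%. For C3ar1 the thinned shares were 20.2%, 24.4%, 25% and 17.3% (42.0%, 58.8%, 51.8% and 46.6% unthinned), and all intervals overlapped. Endothelial-like cells, which should lack both, had thinned shares of 0.0141% to 0.153% for C3ar1 and of 0 to 0.0656% for C5ar1. The 0 of 4019 sham cells for C5ar1 allows a share of up to 0.0746%.

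The 2 receptors differed in their reach beyond microglia. C5ar1 was carried by neutrophil-like cells at 447 CPM (sham), 729, 516 and 373.5 CPM (15, 34, 48 and 19 cells), whereas C3ar1 had 2 UMIs in these cells over all 4 libraries. Border macrophage-like cells carried both, with C5ar1 at 303, 451, 834 and 675 CPM and C3ar1 at 239.7, 292, 392 and 311 CPM. With classes from clusters C5ar1 stood at 197, 301, 318 and 128 CPM and C3ar1 at 184, 237, 184.5 and 137 CPM, so that the day 7 levels of both lay below sham and not above it. Both classes were small, and their levels were not compared by the call rule. Astrocyte-like cells had no UMI of either receptor in any library, and oligodendrocyte-like cells had at most 8.

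**Figure D4:**
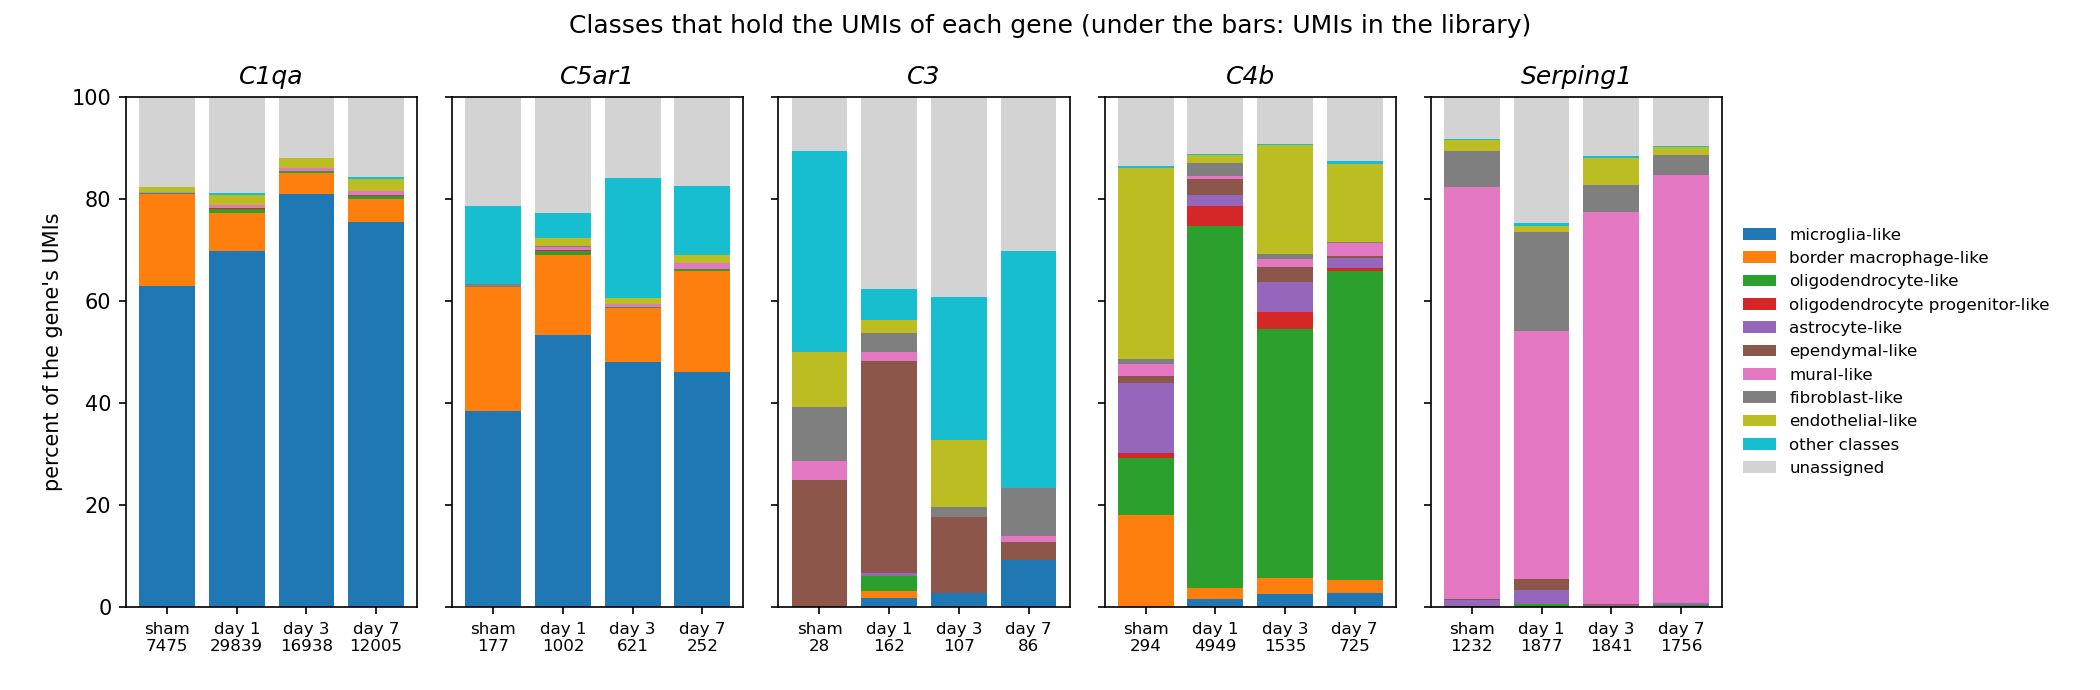
Share of the UMIs of C1qa, C5ar1, C3, C4b and Serping1 in kept cells that came from each cell class, in percent, with the total number of UMIs under each bar. Microglia-like cells gave most of C1qa in every library, oligodendrocyte-like cells most of C4b on days 1 and 7 and 48.7% on day 3, and mural cells most of Serping1 except on day 1, when they gave 48.5%.

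Serping1 (ENSMUSG00000023224, chr2:84765387-84775444, minus strand), the inhibitor of the first complement proteases, was highest in fibroblast-like cells and next in mural cells. Fibroblast-like cells had the highest levels in each library, at 751 CPM for sham and 907, 785 and 944 CPM for days 1, 3 and 7, with intervals that overlapped, from 27, 107, 41 and 25 cells. Mural cells, that is pericyte-like and smooth muscle-like cells together, had 168 CPM (157.5 to 178.5), 215.5 CPM (202 to 230.0), 220.1 CPM (209 to 232) and 153 CPM (146 to 161). The mural ratios to sham were 1.28 (1.17 to 1.41), 1.31 (1.21 to 1.42) and 0.914 (0.843 to 0.992), beyond counting error and under 2-fold, and so not called. Endothelial-like cells, which lie beside them in the vessel, had 1.75, 1.61, 6.38 and 1.31 CPM.

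The mural cells were also split by the marker lists they met. Cells that met the pericyte list only had 53.3 CPM of Serping1 in the sham library (33 UMIs), 174 CPM on day 1 (167 UMIs), 156 CPM on day 3 (200 UMIs) and 74.2 CPM on day 7 (77 UMIs). The ratios were 3.26 (2.24 to 4.90), 2.93 (2.02 to 4.37) and 1.39 (0.915 to 2.16), with log2 values of 1.54, 1.39 and 0.41, and the day 1 and day 3 rises were called, where 2.27% and 0.585% of the genes tested in these cells rose. Serping1 ranked 26 of 4275 genes on day 1 and 6 of 4271 on day 3 by this ratio. Cells that met the smooth muscle list only had 147, 188, 178 and 137 CPM, and cells that met both lists had 202, 269.9, 287 and 192 CPM, with no call. The difference between these subsets was not tested. The subsets themselves shifted with depth, as pericyte list cells numbered 247, 631, 591 and 525 at median depths of 2520, 1300, 2095 and 1773 UMIs, and cells that met both lists numbered 547, 473, 572 and 835 at 6469, 3356, 5110.5 and 4837 UMIs. Among pericyte list cells of 1000 to 3000 UMIs the ratios were 3.17 (1.88 to 5.72), 2.86 (1.71 to 5.14) and 1.06 (0.590 to 2.02), with days 1 and 3 called. Median depths in this window were 2119, 1498.5, 2054 and 1773 UMIs, so depth still differed, and the sham level rested on 16 Serping1 UMIs. With the cells of both lists added, the level was 178.5, 234, 245 and 168 CPM and the ratios were 1.31 (1.17 to 1.46), 1.37 (1.25 to 1.52) and 0.940 (0.850 to 1.04), with no call. Both alternatives were added after seeing the data. In the pericyte list cells the thinned share with a Serping1 UMI was 7.01% for sham (3.98 to 11.3%), and 14.6% (11.5 to 18.3%), 14.2% (11.3 to 17.5%) and 6.86% (4.71 to 9.59%) for days 1, 3 and 7. Unthinned it was 11.3%, 18.7%, 22.5% and 11.8%. Fibroblast markers, whose cells carry the most Serping1, stood at 535, 525, 462 and 388 CPM in the pericyte list cells. Their part in the Serping1 values was not tested, nor was that of smooth muscle-like cells.

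**Figure D5:**
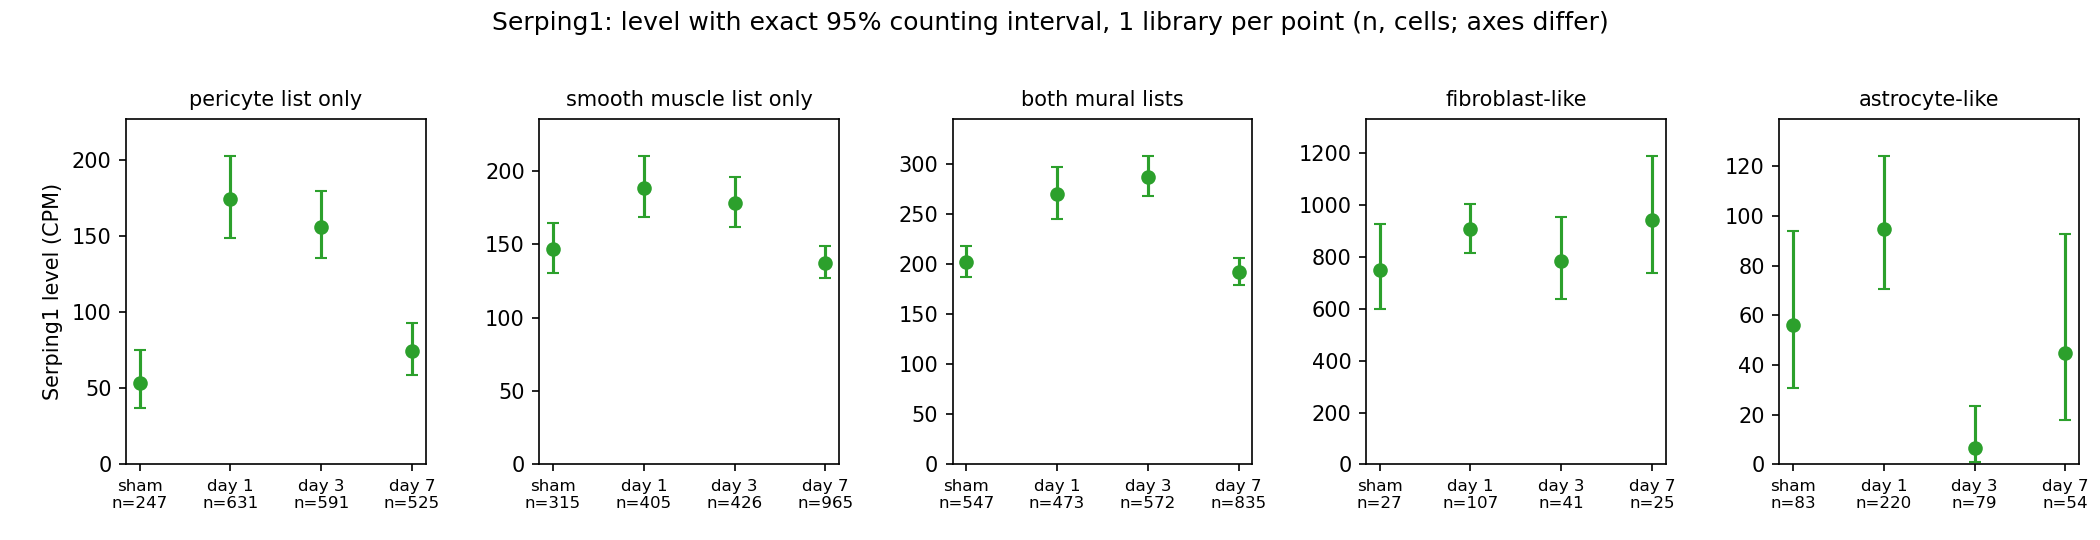
Level of Serping1 in CPM in cells meeting the pericyte list only, the smooth muscle list only or both, in fibroblast-like and in astrocyte-like cells, 1 point per library with its exact 95% counting interval. Pericyte list cells went from 53.3 CPM (sham) to 174 CPM on day 1 and 156 CPM on day 3, while the astrocyte-like level on day 3 rests on 2 UMIs.

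In astrocyte-like cells Serping1 had 56.0, 94.7, 6.56 and 44.96 CPM, from 14, 52, 2 and 7 UMIs. The day 3 ratio of 0.117 (0.0129 to 0.510, log2 -1.995) was called as a fall, where 7.97% of the genes tested in astrocyte-like cells fell, and it rests on few UMIs. The fibroblast marker list moved with it, at 224, 231, 65.6 and 206 CPM with 5, 4, 3 and 4 of its 8 markers at 0, and its part in the fall was not tested. Without the upper limit on genes, which raised the counts to 27 UMIs for sham and 54 on day 3, the ratio was 0.993 (0.615 to 1.64) and the call was lost. It was also lost with the richest cell of each library left out, from 8 and 1 UMIs, and in that setting the day 1 log2 ratio was 1.18 and was called as a rise. With cells grouped by clustering the day 3 log2 ratio was 0.69, in the opposite direction, but from 1 UMI in the sham library and 3 on day 3, with intervals that overlapped. In microglia-like cells Serping1 had 2 UMIs in all, on day 7.

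Over 31 sums of a class in a library with at least 50 cells, the 3 genes most like each member were sought among 9665 genes by Pearson's r of log2(CPM + 10), as a description, since sums of 1 library share its depth and free RNA. C1qa was most like C1qc (0.996), C1qb (0.996) and the myeloid gene Aif1 (0.988). C1qb had Trem2, a microglial receptor, as its closest gene outside C1q (0.989), and C1qc had Aif1 (0.991). C3ar1 was most like Arl11 (0.998), Spi1, which encodes PU.1 (0.994), and Tbxas1 (0.993), and C5ar1 was most like Lrrc25 (0.993), Arl11 (0.992) and Hk3. For C4b the values were lower, with the metallothionein genes Mt2 (0.771) and Mt1 (0.753) first, followed by Zcchc24 (0.752). Cfb was nearest to the endothelial adhesion genes Selp (0.847) and Sele (0.796) and to Lrg1 (0.770), at levels of at most 5.98 CPM. Serping1 was nearest to Twist1 (0.937), Emilin1 (0.933) and Zic4 (0.928), and C3 to Crocc2 (0.963), Spp2 (0.955) and Musk (0.949), which rests almost wholly on ependymal-like cells of day 1.

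Beyond the 9 members, 32 of the 33 other complement genes of a list of components, regulators and receptors were in the table, of which 18 reached 50 CPM in a class (C1ra, C1s1, Fcna, C2, Cfp, Hc, Clu, Vtn, Cd55, Cr1l, Cd59a, Susd4, Csmd1, C5ar2, Itgam, Itgb2, Vsig4 and Cd93). On day 1, 3 of 23 of their pairs rose and 1 fell, on day 3 4 of 17 rose and 1 fell, and on day 7 1 of 18 rose and 1 fell, set against the all-pair shares above. The median log2 ratio was 0.25, 0.44 and 0.25. Cd55, a membrane regulator, rose in astrocyte-like cells from 8.00 CPM (2 UMIs) to 74.7, 68.9 and 51.4 CPM on days 1, 3 and 7. Clu, a fluid-phase regulator, rose on day 3 from 2773 to 5799 CPM in astrocyte-like and from 137 to 321.5 CPM in endothelial-like cells, and on day 1 from 17.7 to 51.2 CPM in mural cells. Vtn had 252 CPM in sham astrocyte-like cells and was called down on day 1 (14.6 CPM), up on day 3 (1519 CPM) and down on day 7 (0 CPM), whereas mural cells held up to 7230.2 CPM of it. In neuron-like cells Csmd1 rose from 32.3 to 93.8 CPM on day 1 and Susd4 fell from 64.5 to 21.9 CPM on day 3.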

How the data were processed

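Single-cell RNA-seq was made from 1 library for the sham group and 1 each for days 1, 3 and 7 after tMCAO. The deposited matrices hold raw UMI counts of each gene in each called cell, not normalized by the authors, and the matrix headers name Cell Ranger 4.0.0. The submitters' processing notes name Cell Ranger 3.0.1, Seurat 4.1.2 and a human build, whereas 31011 of 31053 features (99.9%) carried mouse gene identifiers of GENCODE vM21 (GRCm38), from which positions were taken.

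The study's limits were applied, 200 to 3000 genes per cell and 10% mitochondrial UMIs, and the cells left were gated on 8 markers for each of 16 cell types. Pericyte and smooth muscle cells did not count as rivals and together formed the mural class. UMIs were summed per class and library, so that summed UMIs set the precision, and CPM, percents and log2 ratios were computed here from the deposited counts. Sums were given exact Poisson intervals, ratios exact conditional and shares exact binomial (Clopper-Pearson) intervals at 95%. The limit that a count of 0 allows is 3 counts. Thinning drew 1000 UMIs per cell without replacement, leaving shallower cells out (25, 64, 84 and 49 microglia-like cells from sham to day 7). Doublets were kept.

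The genes named were the 9 members, the other complement genes of a fixed list that reached 50 CPM in a class of at least 50 cells (values for those called), and the 3 genes most like each member. A gene of that list is not reported here and was left out of its counts. Members, markers and lists were chosen with earlier results of these data known. Promoter sequences were taken from RefSeq and read without the exons of the gene. Calculations used Python 3.11.15, numpy 2.4.6, pandas 2.3.3, scipy 1.17.1, scanpy 1.11.5, leidenalg 0.10.2, matplotlib 3.10.9, R 4.3.3 and edgeR 4.0.16 (for TMM factors only), and were tested on simulated data with known fold changes.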

Additional observations from a re-analysis of the deposited data

Results flagged for a closer look

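Cells that no class took, because they met under 3 markers of every list or too many of a rival list, were left out of the comparisons but held members above their sham level. In these unassigned cells C4b stood at 81.0 CPM on day 1 (74.4 to 88.03, 554 UMIs in 2055 cells), against 19.7 CPM in the sham library (14.1 to 26.8, 40 UMIs in 679 cells). C3 stood at 8.92 CPM on day 1 (6.82 to 11.5, 61 UMIs) and at 11.6 CPM on day 3 (8.34 to 15.6, 42 UMIs), against 1.48 CPM in the sham library (0.305 to 4.32, 3 UMIs). Of the unassigned cells, 322 of 679 in the sham library and 1146 of 2055 on day 1 met rival lists. Among those that held the genes above the share was higher, at 193 of 208 cells with C4b and 19 of 22 with C3 on day 1 and 17 of 19 with C3 on day 3. The cells with C4b on day 1 had a median of 5474 UMIs, against 2261 over all unassigned cells of that library.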

How the results depend on the processing

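C4b in oligodendrocyte-like cells was called on days 1 and 3 under every alternative run (log2 ratio 4.02 to 5.50 and 3.22 to 4.38), and on day 7 (1.72 to 3.25) under all but the one that left out cells with a marker UMI of another class. Of 457 alternative values for 39 log2 ratios, 434 had the sign of the main value. Counts of pairs that rose on day 1, 1 as reported, were 4 with 2 markers, 4 with classes from clusters, 4 with the cell richest in the gene left out of each library (adding C5ar1 in microglia-like and C4b and Serping1 in astrocyte-like cells), 5 with no upper limit on genes, 3 with a mitochondrial limit of 5%, 6 with mitochondrial, ribosomal protein, Gm42418 and Malat1 UMIs out of the total, 8 with a mean over cells and 17 with no limit on CPM. The pairs added by the other settings were mostly C1qa and C1qb at trace levels in astrocyte-like, neuron-like and endothelial-like cells, C4b in microglia-like cells and, with no upper limit on genes, C4b in oligodendrocyte progenitor-like and C4b, C3 and Serping1 in ependymal-like cells. On day 3 the count was 2 with a mean over cells, 2 without the richest cell and 6 with no limit on CPM. On day 7 it was 2 with clusters, 3 with no upper limit on genes, 3 with a mean over cells, 4 with no limit on CPM and 0 without cells that held a marker UMI of another class. Counts of pairs that fell on day 3 were 0 with clusters, no upper limit on genes, a 5% mitochondrial limit, a mean over cells, without the richest cell, or without cells that held a marker UMI of another class, and on day 7 they were 3 with clusters (C1qa, C1qc and C4b in border macrophage-like cells) and 1 with no upper limit on genes. Serping1 in astrocyte-like cells on day 3 reversed with clusters (log2 ratio 0.69), where the sham library gave 1 UMI and day 3 gave 3. Serping1 in the cells of the pericyte list only, called on days 1 and 3, was not called with the cells of both mural lists added (log2 ratio 0.37 and 0.44). At least 4 markers, TMM scaling, 1 CPM added and free RNA subtracted moved no count. Leaving out the cells Scrublet marked was not run, since its automatic threshold marked 17, 617, 3 and 2 cells. In its place the top 5% of Scrublet scores were left out, which moved no count, and this, the limit on marker UMIs, the richest cell and the pericyte list settings were chosen after seeing the data.

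No paired analysis was possible because each group had 1 library. The spread between mice is unknown, day and library cannot be told apart, and counts near 0, as of C3 and Cfb, limit what can be compared. Classes under 50 cells were described only.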

Other observations

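The cells that held C4b were set beside the other cells of their class and library, a comparison chosen after the data were seen, at 1000 UMIs per cell and leaving C4b itself out. Genes with at least 50 UMIs were ranked by the ratio of the 2 levels with 100 CPM added to each, and the first 4 of each ranking are given. Among day 1 oligodendrocyte-like cells, those with a C4b UMI had Serpina3n at 725 CPM against 282 CPM in the rest (ratio 2.57, 2.23 to 2.96) and Klk6 at 673 against 314 CPM (2.14, 1.86 to 2.46). Trf and Apod stood at 1.76 and 1.74 times the level in the rest. Serpina3n encodes a protease inhibitor and Trf transferrin. On day 3, Klk6, a protease gene of oligodendrocytes, stood at 330 against 63.2 CPM (5.22, 3.18 to 8.44). H2-D1, Clstn1 and B2m followed at 2.60, 2.93 and 3.13 times the level in the rest, of which H2-D1 and B2m encode parts of class I antigen presentation. On day 7, H2-D1 stood at 417 against 103 CPM (4.06, 2.52 to 6.31), followed by Jun, Junb and Apoe at 2.23, 2.48 and 2.003 times. The 90 endothelial-like cells of day 3 with a C4b UMI had Hbb-bt at 1311 CPM, against 192 CPM in the other 4583 (6.84, 5.60 to 8.30). Apod, Hbb-bs and Hba-a1 followed there at 5.78, 3.85 and 3.59 times. These intervals cover counting error only, and the genes lead a ranking made on the same cells.

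In day 3 endothelial-like cells, the 25 cells with a Cfb UMI at this depth were set beside the other 4648 in the same way. Of the genes reported here, the first 6 of that ranking were Ackr1, a venular chemokine receptor gene, at 5400 against 517 CPM, Lcn2 at 12200 against 1476 CPM, and Lrg1, Cd14, Vwf and Il1r1 at 7.36, 11.3, 5.57 and 8.04 times the level in the other cells. So few cells allow a description only.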
